A study of Mus musculus with 2 samples.

Results

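In 2 single-cell libraries of mouse pancreatic tumours, 100 of 3109 barcodes combined a low depth with the largest shares of Malat1, a long non-coding RNA of the nucleus. They were chosen by their Malat1 share, as the 50 barcodes of each library with the largest Malat1 shares of all UMIs (unique molecular identifiers, which count captured RNA molecules) among barcodes with at least 500 genes, 1000 to 5000 UMIs and at most 20% mitochondrial UMIs. These 138 EL1 and 157 WTg candidate barcodes are called shallow here. The EL1 library came from EL1-Luc/EL1-TAg mice on the FVB/N background, in which the elastase I promoter drives the SV40 large T antigen and firefly luciferase in pancreatic acinar cells. The WTg library came from double transgenic mice, a cross of EL1 with mice that carry a Mettl3 cDNA under the ubiquitous CAG promoter and were made in BL/6, so both libraries share the T antigen and luciferase. Both were labelled as primary epithelial cells of the pancreas at 6 weeks of age. How many animals went into a library, and of which sex, was not given, and strain background cannot be told apart from the Mettl3 transgene. With 1 library per group no difference was tested, and every interval below is a 95% interval for counting error only.

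A mammalian cell keeps part of its RNA in the nucleus. Malat1 sits in nuclear speckles, Neat1 builds paraspeckles, imprinted RNAs such as Kcnq1ot1 stay on the chromatin they come from, and unspliced precursors of long genes wait there to be processed. Messenger RNAs of ribosomal proteins, glycolytic enzymes and the cytoskeleton are short, stable and mostly cytoplasmic, and the messenger RNAs of mitochondrial DNA lie inside mitochondria, a separate compartment of the cytoplasm. In acinar cells the cytoplasm is further filled with messenger RNAs of digestive enzymes that are translated at the endoplasmic reticulum.

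Malat1 and Neat1 are neighbours on chromosome 19 and end in a related way. Both long forms are cut at their 3′ end by the enzyme that also trims tRNA precursors, and end in a stretch of A that is written in the genome instead of an added poly(A) tail. The last 10 bases of Neat1 also occur near the end of Malat1. The 30 bases that close on them (GRCm38, GENCODE M21, both on the minus strand and exonic in a transcript of 1 exon) are shown because a 3′ library captures RNA through A stretches, with the shared bases AAAAGCAAAA in capitals.
Malat1, chr19:5795982-5796011: ttccctagctttaaaaaaaaAAAAGCAAAA
Neat1, chr19:5824708-5824737: gagaacgaacgtgagcaggaAAAAGCAAAA
In Neat1 the motif was the last of the 20771 bases of the annotated transcript, and in Malat1 292 bases of the 6983-base annotated transcript followed it. Searched on the transcript strand alone, the motif occurred in the last 400 bases of 0.311% of 122312 annotated transcripts. A match describes the sequence and says nothing of which stretch was captured.

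The Malat1-rich barcodes held a median of 2062.5 UMIs and 1125 genes in EL1 and 2125.5 UMIs and 1131 genes in WTg. They were set beside 943 EL1 and 704 WTg deep cells, which had 10000 or more UMIs and no more than 20% of them mitochondrial, with medians of 30662 and 40425.5 UMIs, and beside the other 88 and 107 shallow barcodes. After each barcode was thinned to 1000 UMIs, the Malat1-rich barcodes had a median of 634.5 genes in EL1 and 642.5 in WTg. Deep cells had 570 and 527, and the other shallow barcodes 536 in both libraries. The 2 libraries shared 15 barcode sequences, and 0 of these belonged to the Malat1-rich barcodes. Doublets were not removed.

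Malat1 itself chose the barcodes, so its values are only a description. Its share ran from 4.34% to 20.3% in the EL1 barcodes, with a median of 9.02%, and from 5.33% to 24.4% in WTg, with a median of 10.1%. In deep cells the medians were 0.99% and 0.84%, and in the other shallow barcodes 1.02% and 0.61%. The last barcode inside had 122 Malat1 UMIs of 2814 in EL1 (4.34%) and 85 of 1596 in WTg (5.33%), and the first outside had 49 of 1147 (4.27%) and 59 of 1112 (5.31%), so the border fell within a continuous range. All other values below are counts per 1000000 UMIs that are not Malat1 (CPM) or percentages of them.

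**Figure D1:**
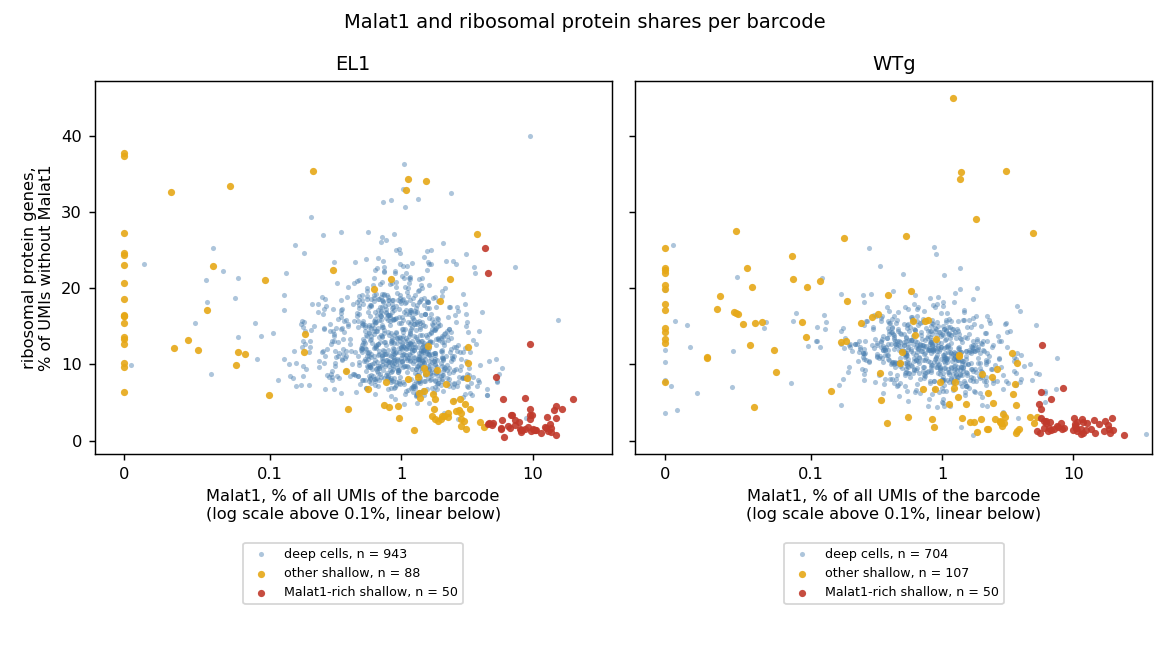
Each point is 1 barcode of EL1 (left) or WTg (right), with its Malat1 share of all UMIs on the x axis (percent, log scale above 0.1%) and its share of ribosomal protein genes among UMIs without Malat1 on the y axis (percent). The Malat1-rich barcodes lie at the lower right, with median ribosomal protein shares of 2.12% and 1.86%, while deep cells centre on 12.5% and 11.7%.

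The other nuclear long non-coding RNAs were higher in sum in the Malat1-rich barcodes. The 13 listed without Malat1 together made up 1.19% of UMIs in EL1 and 1.33% in WTg, against 0.150% and 0.135% in deep cells. Neat1 and Kcnq1ot1 made up most of the sum in the Malat1-rich barcodes and in deep cells of both libraries. The summed values of this list, here and below, thus mainly describe these genes. The log2 ratio was 2.99 (2.91 to 3.07) in EL1 and 3.30 (3.22 to 3.37) in WTg, where the median gene of all those tested was at 0.77 and 0.998. Of the 13 genes 6 reached 50 CPM on average over both sets and were at least 2-fold higher in both libraries, beside 40.5% of all genes. Only Neat1 and Kcnq1ot1 reached 50 CPM in deep cells. The other 4 passed through the Malat1-rich barcodes, where they were high, so the count is no support for the direction. In 46 of 50 barcodes of each library the summed share was above the 95th percentile of deep cells, so the difference was not carried by a few barcodes.

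Neat1, the scaffold of paraspeckles, was the most abundant of them. It had 8378 CPM (7828 to 8956) in the EL1 barcodes against 1093 in deep cells, and 6867 CPM (6381 to 7381) in WTg against 865. UMIs of Neat1 were found in 47 of 50 EL1 and in 50 of 50 WTg barcodes. The ratio was 7.66-fold in EL1 and 7.94-fold in WTg.

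Kcnq1ot1 is the imprinted antisense RNA of the Kcnq1 domain and spans 93092 bases of chromosome 7 (143203458 to 143296549). It had 3145 CPM (2812 to 3507) against 341 in EL1, and 5436 CPM (5005 to 5895) against 412 in WTg, which is 9.21-fold and 13.2-fold. It lies within Kcnq1 on the other strand, and the sources used here do not state how strand was counted, so reads of the pair may not be told apart.

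Among the rarer nuclear RNAs, Firre, Snhg14 and Airn lay in the same direction with wide intervals. Naming favoured RNAs with UMIs in the Malat1-rich barcodes, so their direction is no support. Of the 13 listed RNAs, 3 in EL1 and 4 in WTg had 0 UMIs in the Malat1-rich barcodes. Firre, an X-linked RNA that holds chromosome regions together in the nucleus, had 10 UMIs in EL1 and 16 in WTg (log2 ratios 3.92, 2.84 to 4.83, and 4.04, 3.21 to 4.76). Snhg14, the long host transcript of the small nucleolar RNAs near Ube3a, had 12 and 8 UMIs (3.92, 2.95 to 4.75, and 3.09, 1.87 to 4.09). Airn, the antisense RNA that silences Igf2r, had 3 UMIs in EL1 (2.63, 0.34 to 4.20) and 16 in WTg (3.96, 3.13 to 4.68).

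Meg3 and Rian, maternally expressed RNAs of the same imprinted domain on chromosome 12, rested on single barcodes in WTg. Meg3 had 10 UMIs in 6 EL1 barcodes (log2 ratio 1.72, 0.66 to 2.61) and 31 UMIs in 6 WTg barcodes (3.31, 2.75 to 3.83), but 1 WTg barcode held 21 of the 31. Rian had 24 UMIs in WTg, 23 of them in 1 barcode, and 2 in EL1. Xist and Miat were at 0 UMIs in the Malat1-rich barcodes of both libraries, where 3 UMIs would be 29.1 CPM in EL1 and 27.9 CPM in WTg.

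**Figure D2:**
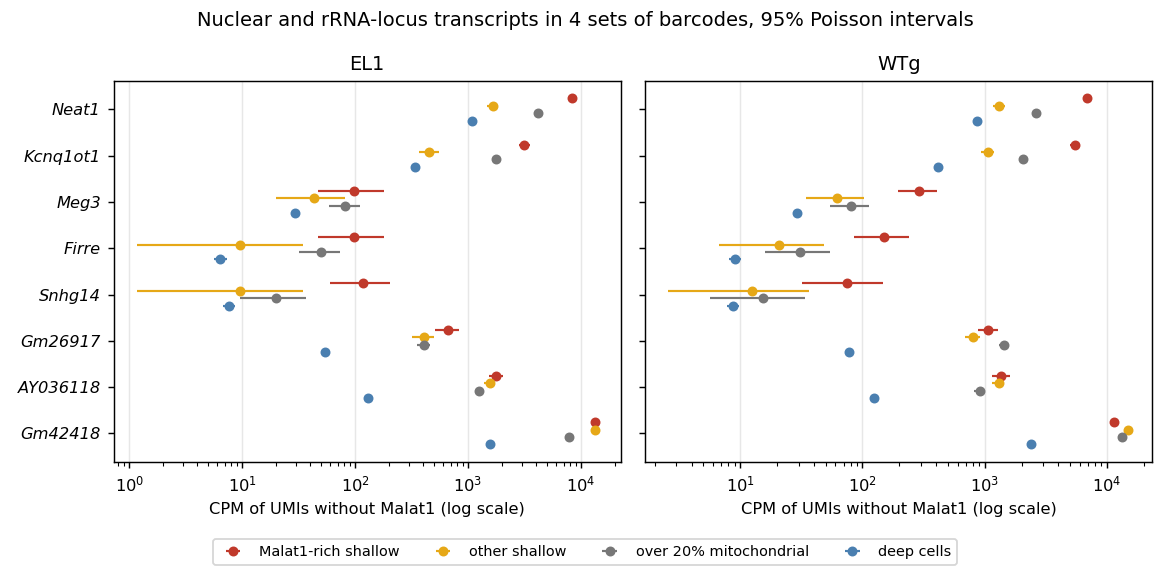
Summed levels of 8 transcripts in CPM of UMIs without Malat1 (x axis, log scale) in EL1 (left) and WTg (right), with 95% Poisson intervals, for the Malat1-rich barcodes, the other shallow barcodes, shallow barcodes with over 20% mitochondrial UMIs and deep cells. Neat1 and Kcnq1ot1 are highest in the Malat1-rich barcodes, while Gm42418 and AY036118 are about as high in the other shallow barcodes.

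Transcripts of the ribosomal RNA locus behaved otherwise. Gm26917, Gm42418 and AY036118 are annotated as non-coding genes beside each other on chromosome 17 (39843013 to 39848788), and Gm42418 and AY036118 overlap on opposite strands. Their reads are commonly taken as pieces of ribosomal RNA. Summed, they were at 1.58% in the EL1 barcodes and 1.38% in WTg, above deep cells (0.175% and 0.258%, log2 ratios 3.18 and 2.42). The other shallow barcodes had as much, 1.53% and 1.69%, with log2 ratios of 0.05 (-0.03 to 0.14) and -0.29 (-0.38 to -0.20). The nuclear non-coding list in contrast stood 2.43 (2.27 to 2.58) and 2.41 (2.27 to 2.55) above the other shallow barcodes, with 5 of 6 genes at least 2-fold higher in both libraries, beside 34.5% of all genes (0.886% of all genes were 2-fold apart in opposite directions). Of the 3 rRNA-locus genes 0 were. The average over both sets lets in rare genes that are high in the Malat1-rich barcodes, so the 5 of 6 is no support for the direction. Over single barcodes the median was 0.868% in EL1 and 1.27% in WTg, and 36 and 33 of 50 barcodes were above the median of the other shallow ones, so the summed and the per-barcode comparison differed. Gm26917 had 660.1 CPM in the Malat1-rich barcodes of EL1 against 404 in the other shallow ones and 54.7 in deep cells, and 1059 CPM in WTg against 795 and 76.9.

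Messenger RNAs known to be held in the nucleus were sparse. Mlxipl, which encodes the glucose-sensing factor ChREBP, had 8 UMIs in 7 EL1 barcodes (77.7 CPM, 33.5 to 153, against 10.1 in deep cells) and 18 UMIs in 14 WTg barcodes (167 CPM, 99.1 to 264, against 10.9). The log2 ratios were 2.95 (1.73 to 3.94) and 3.94 (3.17 to 4.63). Mlxipl was under 50 CPM in deep cells, and naming favoured genes with UMIs in the Malat1-rich barcodes, so its direction is no support. Slc7a2, the arginine transporter gene with a nuclear transcript form, had 9 UMIs in EL1 (2.92, 1.78 to 3.86) and 1 UMI in WTg (-0.32, -5.63 to 2.17), too few to compare the libraries. Nlrp6 had 1 UMI in EL1 and 0 in WTg.

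Messenger RNAs of splicing and speckle proteins were also higher. The 25 genes together made up 1.79% of UMIs in EL1 and 1.80% in WTg, against 0.548% and 0.510% in deep cells, with log2 ratios of 1.71 (1.64 to 1.77) and 1.82 (1.75 to 1.88). Of 24 tested, 20 were at least 2-fold higher in both libraries, beside 40.5% of all genes, or 19.7% where genes were filtered on deep cells alone. In all 50 barcodes of each library the share was above the median deep cell.

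Luc7l2, a component of the U1 particle, stood furthest from deep cells, with 2408 CPM against 323 in EL1 and 2332 against 312 in WTg (7.46-fold and 7.47-fold). Srrm2, a speckle scaffold, was 2.81-fold and 2.47-fold higher. Ddx5 and Srsf3 were closer to deep cells. The RNA helicase Ddx5 was 1.65-fold and 1.38-fold higher, and the splicing factor Srsf3 1.42-fold and 1.74-fold.

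Cytoplasmic messenger RNAs were lower. Ribosomal protein genes made up 3.95% of UMIs in the EL1 barcodes and 2.43% in WTg, against 13.1% and 11.8% in deep cells. The log2 ratios were -1.73 (-1.77 to -1.68) and -2.28 (-2.34 to -2.23), and 76 of 81 tested genes were at least 2-fold lower in both libraries, beside 16% of all genes. With the 100 barcodes of largest Malat1 share in each library the ratios were smaller, -0.78 and -0.77. Single barcodes showed the same order, with a share below the 5th percentile of deep cells in 46 of 50 EL1 and 48 of 50 WTg barcodes. Rplp0, a protein of the ribosomal stalk, had 786 CPM against 4187 in EL1 and 474 against 2752 in WTg. Rpl7l1, a ribosomal protein-like gene, was closest to deep cells (log2 ratios -0.08, -1.29 to 0.90, and -0.59, -2.47 to 0.76).

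Nuclear genes for the respiratory chain were lower too. The 77 listed genes had 0.520% of UMIs in EL1 and 0.435% in WTg against 2.23% and 2.02%, with log2 ratios of -2.10 (-2.23 to -1.98) and -2.21 (-2.35 to -2.08), and 61 of 69 tested were at least 2-fold lower in both libraries, beside 16% of all genes. All 100 barcodes were below the median deep cell of their library. Cox8a, a subunit of cytochrome c oxidase, had 97.1 CPM against 677 in EL1 and 83.6 against 633 in WTg. Ndufs1, a large subunit of complex I, was the exception, with 97.1 CPM against 47.2 and 65.0 against 34.9 (log2 ratios 1.04, -0.02 to 1.92, and 0.90, -0.42 to 1.95).

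RNAs encoded by mitochondrial DNA did not follow the nuclear genes for the same complexes. Summed, they were higher, at 8.82% against 4.47% in EL1 and 6.23% against 4.13% in WTg. Both sets were limited to barcodes with at most 20% mitochondrial UMIs, so the choice of barcodes bounded these shares and they are only a description. The median barcode was at 6.27% of all UMIs in EL1, above the 4.11% of deep cells, but at 2.97% in WTg, below the 3.88% there. Barcodes lay on both sides, with 15 EL1 and 19 WTg barcodes under the 5th percentile of deep cells and 17 and 12 over the 95th.

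The remaining cytoplasmic lists gave the same direction. For translation factors 11 of 17 genes were at least 2-fold lower in both libraries, for glycolysis 5 of 9, for the cytoskeleton 7 of 9 and for folding and translocation at the endoplasmic reticulum 7 of 14, beside 16% of all genes. In each of these lists 0 were higher, beside 40.5%. Tpt1, a growth-related cytoplasmic mRNA, had 1087 CPM against 5228 in EL1 and 771 against 4642 in WTg. Gapdh had 155 CPM against 944 and 149 against 882. Actb, the cytoplasmic actin, was at 3029 CPM against 9915 and 3736 against 15998.

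Within some lists single members stood apart from the rest. Pabpc1, the poly(A) binding protein, had log2 ratios of 0.19 (-0.31 to 0.65) and 0.40 (-0.01 to 0.79) where Tpt1 had -2.27 and -2.59. At the endoplasmic reticulum the chaperones Hsp90b1 (0.00 and -0.21) and Hspa5 (-0.21 and -0.33) were near the deep cells, while the small translocon subunits Sec61b (-2.83 and -2.67) and Sec61g (-2.69 and -2.36) were far below. Cytoplasmic and small-nucleolar host RNAs such as Gas5 and Snhg1, which are non-coding but turned over in the cytoplasm, had summed log2 ratios of 0.12 (-0.16 to 0.38) and 0.15 (-0.20 to 0.47), and 0 of 8 were 2-fold apart in both libraries in either direction, beside 40.5% of all genes higher and 16% lower. Immediate early genes such as Jun and Egr1 were at -0.46 and -0.57, with 0 of 7 past 2-fold in both, beside the same shares.

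Digestive enzymes, the product of acinar cells, were lower but still abundant. The 20 genes made up 7.17% of UMIs in EL1 and 6.17% in WTg, against 17.9% and 21.3% in deep cells, with log2 ratios of -1.32 (-1.36 to -1.29) and -1.79 (-1.82 to -1.75). Ctrb1, a chymotrypsinogen, had 7864 CPM against 23919 and 7267 against 29338, and Clps, pancreatic colipase, 2068 against 12047 and 2007 against 16148. At least 3 of these genes had a UMI in every barcode of every set, so their presence did not tell the sets apart.

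**Figure D3:**
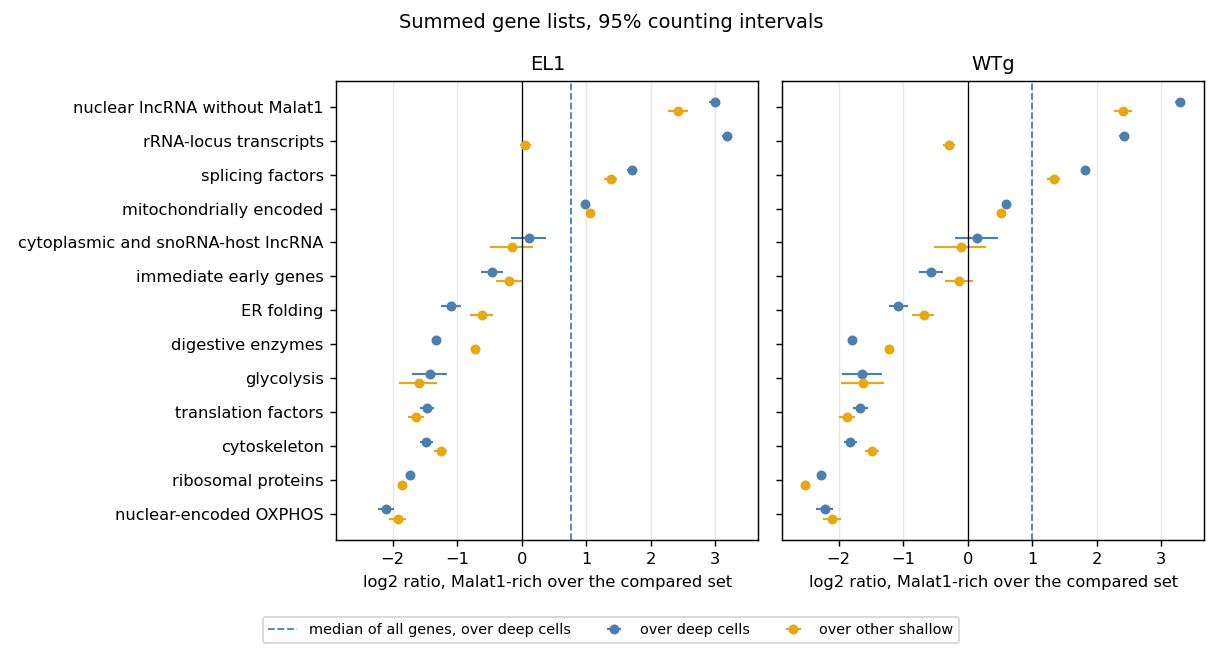
Log2 ratio of summed CPM (x axis) for 13 gene lists (rows), Malat1-rich barcodes over deep cells (blue) and over the other shallow barcodes (yellow), with 95% counting intervals, in EL1 (left) and WTg (right). Nuclear non-coding RNAs and splicing factors lie to the right of the dashed median of all genes and ribosomal proteins and nuclear respiratory genes at -1.73 or below, while the rRNA-locus list is high only against deep cells.

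Over all 3557 genes with 50 CPM on average, 1441 were at least 2-fold higher in both libraries and 569 lower (40.5% and 16%), and 8 were 2-fold apart in opposite directions (0.225%). An average of both sets lets in rare genes that are high in the Malat1-rich barcodes. With the filter on deep cells alone, 458 of 2323 genes were higher (19.7%) and 666 lower (28.7%), and the median gene moved from 0.77 and 0.998 to -0.42 and -0.27. Under it 20 of 24 splicing genes were higher and 76 of 81 ribosomal protein genes lower, the same counts as before, while only 2 nuclear non-coding RNAs were left to test, both higher.

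Among genes with 50 CPM on average, those furthest above deep cells by size were mostly non-coding. Besides Firre and Gm26917 they were Gm45509 (log2 ratios 4.80 and 6.24), Gm28187 (4.57 and 4.08), B230216N24Rik (3.58 and 3.98), Gm48027 (4.35 and 3.50) and G530011O06Rik (3.64 and 4.63, the latter from 1 UMI, -0.79 to 7.39). Protein-coding genes among them were the receptor kinase gene Grk3 (3.83 and 3.62) and Snapc3, of the complex that transcribes small nuclear RNAs (3.47 and 3.49). These non-coding and coding genes, Firre and Gm26917 aside, had 9 to 26 UMIs in a library apart from the 1 UMI named. B230216N24Rik overlaps Pam, and Gm48027 overlaps Arid4b, on the same strand, so their reads may not be told apart from those of these genes. The average lets in rare genes that are high in the Malat1-rich barcodes, so the ranking is only a description.

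Those furthest below were mostly nuclear genes of mitochondrial proteins. They were the respiratory chain genes Cox5b (-3.92 and -3.42), Atp5j (-3.79 and -3.31), Atp5h (-3.37 and -3.14), Ndufa7 (-3.29 and -4.39) and Ndufa8 (-3.82 and -3.55), with Idh3g of the citric acid cycle (-3.46 and -3.38) and the fatty acid thiolase Acaa2 (-3.50 and -3.04). The others were Erh (-3.98 and -3.70), 1810037I17Rik (-4.18 and -3.84) and the macrophage gene C1qb (-3.05 and -3.23). Each rested on 1 to 6 UMIs in a library, and the interval of Cox5b, from 4 UMIs, ran from -5.80 to -2.56 in EL1.

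The ratio was higher for longer genes. Protein-coding genes that span up to 10 kb had a median log2 ratio of -1.25 in EL1 and -1.43 in WTg, and those over 100 kb 1.83 and 2.14, with 0.66 and 0.80 at 10 to 50 kb and 1.51 and 1.76 at 50 to 100 kb between them. Of 503 genes over 100 kb, 478 were above 0 in EL1 and 484 in WTg. With ribosomal protein, translation and respiratory genes left out and the filter on deep cells alone, the medians still ran from -1.27 to 1.62 in EL1 and from -1.33 to 1.88 in WTg. The ratio also differed by transcript length at a given span. Within spans of 10 to 50 kb, genes whose longest transcript had under 2000 bases had medians of -1.32 and -1.37, and those with 4000 bases or more 0.74 and 0.84. The 64 non-coding genes with 50 CPM on average over both sets had medians of 2.39 and 2.60. That filter lets in rare genes that are high in the Malat1-rich barcodes, and these medians were not taken with the filter on deep cells alone. Whether reads in introns were counted is not given in the sources used here, and the share of such reads in these values was not tested.

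**Figure D4:**
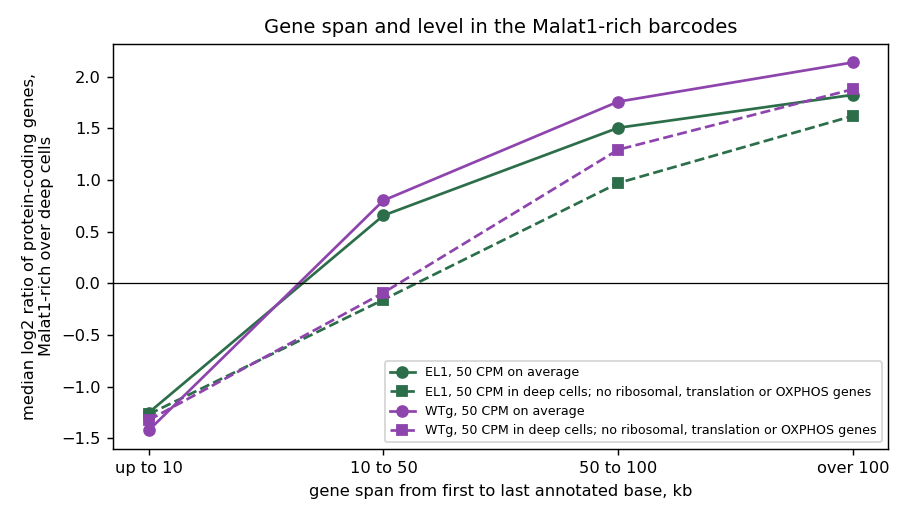
Median log2 ratio of protein-coding genes, Malat1-rich barcodes over deep cells (y axis), by gene span in kb (x axis), for EL1 (green) and WTg (purple). Solid lines take genes with 50 CPM on average and dashed lines genes with 50 CPM in deep cells without ribosomal, translation and respiratory genes, and all 4 lines run from -1.25 or below for short genes to 1.62 or above for the longest.

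Few of the Malat1-rich barcodes held several leukocyte markers. Of 50 EL1 barcodes 0 had 3 or more leukocyte markers (a true share of up to 6% could give this), and 2 of 50 WTg barcodes had them. Among deep cells these were 144 of 943 and 228 of 704, and among the other shallow barcodes 23 of 88 and 22 of 107. Finding 3 markers of the pooled lists depends on depth, so the deep cell counts are not a share of leukocytes. They cannot be compared directly with those of the Malat1-rich barcodes, while the other shallow barcodes had a similar depth. Macrophage markers summed to 6 UMIs in EL1 and 38 in WTg (log2 ratios -2.92 and -1.58, with 5 and 1 of 10 markers at 0), T and NK cell markers to 3 and 2, and B cell markers to 0 and 0. EL1 had 0 UMIs of neutrophil markers. WTg had 17, a level higher than in deep cells (158 CPM against 1.37, log2 ratio 6.85, 5.94 to 7.68) and lower than in the other shallow barcodes (0.0158% against 0.584%). At least 3 neutrophil markers were found in 1 of the 50 WTg barcodes and in 0 of 704 deep cells. The summed level therefore need not hold for the set as a whole. Pan-leukocyte markers had 0 UMIs in EL1 and 9 in WTg (0.50, -0.63 to 1.43). Endothelial markers summed to 2 and 3 UMIs and fibroblast markers to 4 and 3. Without the 2 WTg barcodes that held 3 or more leukocyte markers the ribosomal protein ratio was -2.34 and the nuclear non-coding ratio 3.33.

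Epithelial markers were present but lower in sum than in deep cells. The 8 ductal and epithelial markers made up 0.767% of UMIs in EL1 against 1.16% in deep cells and 0.650% in WTg against 1.13% (log2 ratios -0.60, -0.70 to -0.50, and -0.79, -0.90 to -0.68). Of 5 tested, 1 was at least 2-fold lower in both libraries, beside 16% of all genes. Against the other shallow barcodes the sum was higher, with log2 ratios of 0.49 (0.36 to 0.62) and 0.26 (0.12 to 0.39). The 12 neuroendocrine markers were at -0.02 (-0.16 to 0.13) in EL1 and -0.90 (-1.14 to -0.68) in WTg, with 5 and 4 of 12 at 0 UMIs. Krt8, a simple epithelial keratin, had UMIs in 49 EL1 and 48 WTg barcodes, with 4553 CPM against 6317 and 4238 against 6006. Epcam had 621 CPM against 585 and 446 against 518, and Chga, a granin of neuroendocrine cells, 3611 against 3600 in EL1 and 1078 against 2167 in WTg. Chga alone thus made up most of the neuroendocrine sum, which was 3903 CPM in EL1 and 1431 in WTg. At least 3 of 8 ductal and epithelial markers were found in 28 EL1 and 24 WTg barcodes of 50 each, and at least 3 of 12 neuroendocrine markers in 4 and 6. For the other shallow barcodes, of similar depth, the counts were 37 of 88 and 45 of 107 for ductal and epithelial markers, and 7 and 7 for neuroendocrine ones. For deep cells, where more markers are found per barcode, they were 916 of 943 and 657 of 704, and 570 and 500. The barcodes were given no cell type name.

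Haemoglobin separated the libraries. Erythroid markers summed to 192 UMIs in EL1 (1864 CPM, against 47.6 in deep cells and 6731 in the other shallow barcodes) and to 3 UMIs in WTg (27.9 CPM against 35.1). The log2 ratio to deep cells was 5.29 (5.07 to 5.51) in EL1 and -0.33 (-2.61 to 1.22) in WTg. The EL1 UMIs sat in few barcodes, with 5 of 50 holding 3 or more of the 5 markers, and Alas2 was at 0 in both libraries. Without those 5 barcodes the nuclear non-coding ratio of EL1 was 2.91 and the ribosomal protein ratio stayed at -1.73.

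Shallow barcodes with over 20% mitochondrial UMIs (179 in EL1 and 119 in WTg) shared much of the pattern. Of these, 88 in EL1 (49.2%) and 29 in WTg (24.4%) had a Malat1 share at or above the lowest of the Malat1-rich barcodes. With mitochondrial UMIs left out of the total, their nuclear non-coding share was 1.05% and 0.899% against 1.31% and 1.41% in the Malat1-rich barcodes, log2 ratios of 0.32 (0.23 to 0.42) and 0.65 (0.55 to 0.75). The ribosomal protein share was 5.55% and 5.66% against 4.33% and 2.60%. Splicing factors stood at 1.65% and 1.46% against 1.96% and 1.92%. The counts per gene keep mitochondrial UMIs in the total, which lowers every other gene of these barcodes, and the median gene then stood at 0.81 in EL1 and 1.01 in WTg. On that scale the ribosomal protein ratio was 0.28 (0.23 to 0.33) in EL1 and -0.34 (-0.40 to -0.28) in WTg, so its direction in EL1 depended on the total used. On it, 2 of 7 nuclear non-coding RNAs and 2 of 25 splicing genes were at least 2-fold higher in both libraries than in these barcodes, beside 22.2% of all genes. Of 80 ribosomal protein genes 0 were 2-fold lower in both, beside 0.216%, and 0.587% of all genes differed in opposite directions. In all 3 lists the Malat1-rich barcodes were closer to these barcodes than to deep cells.

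Among the Malat1-rich barcodes the lists followed the Malat1 share only loosely. Over the 50 barcodes Spearman's rho with the ribosomal protein share was -0.16 in EL1 and -0.31 in WTg, and with the nuclear non-coding share 0.26 and -0.01. Over all shallow barcodes it was -0.74 (n = 138) and -0.77 (n = 157) for ribosomal proteins, 0.81 and 0.80 for nuclear non-coding RNAs and 0.82 and 0.83 for splicing factors. The points of a library share its preparation and differ in depth and in cell type, so these are descriptions.

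Between the libraries, Mettl3, the m6A methyltransferase gene that WTg mice carry as a transgene, was examined first. Counts came to 6 UMIs in 5 EL1 barcodes (58.2 CPM, 21.4 to 127) and 30 UMIs in 21 WTg barcodes (279 CPM, 188 to 398). Relative to EL1, the WTg level was higher by a log2 ratio of 2.26 (0.97 to 3.81) in the Malat1-rich barcodes and 2.13 (1.99 to 2.27) in deep cells. The 19 genes at least 4 times higher in WTg than in EL1 deep cells had a median log2 ratio of 2.80 there. In the Malat1-rich barcodes their median was 2.44. For the 7 genes lower by as much, the medians were -4.09 in deep cells and -3.92 in the Malat1-rich barcodes. The ribosomal protein list was lower in WTg by a log2 ratio of -0.70 (-0.77 to -0.63) in the Malat1-rich barcodes and by -0.14 in deep cells, the nuclear non-coding list differed by 0.15 (0.04 to 0.26) and -0.15, and splicing factors by 0.01 (-0.08 to 0.10) and -0.10. Ribosomal protein shares reached 25.3% in the highest EL1 barcode and 12.5% in the highest WTg barcode, and the medians over barcodes were 2.12% and 1.86%.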

How the data were processed

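UMI counts per gene and barcode were deposited by the authors, who made them with Cell Ranger 6.0.2 as the matrix header states, from 10x Chromium 3′ libraries, and the submitters' processing notes name GRCm38, R 4.1 and Seurat 4.0.5. Whether introns were counted and how strand was used is not given in the sources used here. The files hold 32285 gene IDs, and rows of the same symbol were summed to 32245 symbols. There were 39171674 UMIs in 1621 barcodes of EL1 and 34871992 in 1488 barcodes of WTg. A dense count table per sample, which holds fewer genes and barcodes, served as an alternative.

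UMIs were summed over the barcodes of a set and divided by the set's UMIs without Malat1. The 50 Malat1-rich barcodes held 103007 such UMIs in EL1 and 107610 in WTg, so that 3 counts are 29.1 and 27.9 CPM. Sums have exact Poisson intervals and ratios exact conditional binomial intervals (scipy 1.17.1). A count of 0 was set to 3 counts, the ratio was then a bound, and no ratio was taken where that bound pointed away from the 0. Genes were compared with at least 50 CPM on average over both sets of both libraries, without Malat1 and mitochondrial genes, and called at 2-fold in both libraries. With 1 library per group no test was possible. Calculations were tested on simulated data. Gene spans and types came from GENCODE M21 (GRCm38), which matched 32158 of 32285 gene IDs.

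The barcodes, gene lists and the rule for named genes were chosen with earlier results of these data known. The rule took Malat1 and Mettl3, each gene of the nuclear and rRNA-locus lists with 10 or more UMIs in the Malat1-rich barcodes, the 4 most abundant genes and the extremes of each other list, of which the text gives a selection, and the 10 highest and 10 lowest log2 ratios. A few genes that the rule names are not reported here. Airn, Rian, Xist, Miat and Nlrp6 are given for completeness. The alternatives were 25 or 100 barcodes per library, other denominators, the other shallow barcodes in place of deep cells, equal weight per barcode, barcodes with leukocyte markers left out, the dense tables, and for the counts other filters and a 1.5-fold limit. Leaving out barcodes with erythroid markers was added after the data had been seen.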

Additional observations from a re-analysis of the deposited data

Results flagged for a closer look

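The erythroid list differed between the 2 libraries. Its log2 ratio of Malat1-rich barcodes over deep cells was 5.29 (5.07 to 5.51) in EL1 and -0.33 (-2.61 to 1.22) in WTg, where 3 UMIs gave it no measurable direction. Each is 1 library, so the difference was not tested.

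Malat1 shares at or above the lowest of the Malat1-rich barcodes also occurred among barcodes outside the depth window or the mitochondrial limit. They were found in 88 EL1 and 29 WTg shallow barcodes with over 20% mitochondrial UMIs and in 22 and 5 barcodes below the depth or gene minimum. Of deep cells, 13 in EL1 and 8 in WTg had such a share, as had 2 of 37 EL1 and 9 of 52 WTg barcodes with 5000 to 10000 UMIs.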

How the results depend on the processing

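Of 62 alternative values 37 stayed close to the value reported, 25 moved and 0 turned direction, which only the ratios could do. Close meant inside the interval of the reported ratio, or within 1.5-fold of the reported count whatever the number of genes tested. By this rule 666 of 2323 and 776 of 18212 genes lower were close to 569 of 3557. The nuclear non-coding ratio to deep cells (2.99 in EL1, 3.30 in WTg) was 2.36 and 2.76 with 100 barcodes per library, 2.86 and 3.15 with Malat1 in the denominator, 2.43 and 2.41 against the other shallow barcodes, 2.89 and 3.19 with equal weight per barcode, and 2.91 in EL1 without barcodes with erythroid markers, which was chosen after seeing the data. The ribosomal protein ratio (-1.73 and -2.28) was -2.03 and -2.75 with 25 barcodes, -0.78 and -0.77 with 100, -1.86 and -2.43 with Malat1 in the denominator and -1.85 and -2.52 against the other shallow barcodes. In EL1 it was -1.66 without mitochondrial genes and -1.91 with equal weight, and in WTg -2.34 without barcodes with leukocyte markers. Genes higher in both libraries (1441 of 3557) were 695 of 1691 at 100 CPM, 458 of 2323 with the filter on deep cells alone and 3306 of 18212 without a filter. Genes lower (569) were 321 of 3359 with 100 barcodes and 373 at 100 CPM. The cause of these shifts was not tested.

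No paired analysis was possible because there was only 1 library per group. Differences between the libraries hold for these libraries only, intervals cover counting error only, and genes under about 3 UMIs per set could not be measured. The sum over 50 barcodes limits rare genes, and barcodes of a library are not replicates.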
